A study of Mus musculus with 12 samples.

Results

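Multiple-exon skipping is the form of alternative splicing in which a block of at least 2 neighbouring exons is either kept or left out of the mature RNA as a unit. The members described here are 2200 pairs of such events in the mouse colon, of 19723 pairs of splicing events of every kind in the same transcript table. A pair joins the transcripts that keep a block (ON) with those of the same gene that skip it (OFF), matched by gene and by the start and end of the block. The 2200 pairs lay in 1444 genes and used 2197 distinct sets of transcripts, so a few pairs share all their values with another pair.

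RNA from whole colon was sequenced as 12 libraries, 4 labelled FGF1, 4 labelled DSS and 4 labelled control. DSS, dextran sulfate sodium, injures the colon epithelium and is a standard way to cause colitis in mice. FGF1 is a fibroblast growth factor, and the series was designed to ask how it acts on the colon epithelium in a model of inflammatory bowel disease. Tissue and treatment are all that the labels give: whether FGF1 was given on top of DSS is not stated, and neither are strain, genotype, age, dose and duration. They also do not say that libraries of a group came from separate animals, so p-values measure the spread between these libraries, which may be technical. Whole tissue holds many cell types, and fewer cells of a type cannot be told apart from less RNA per cell, nor a shift of splicing within a cell type from a shift in the mixture of types.

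Exons are joined or skipped by the spliceosome, which reads short signals at the exon ends under the control of RNA-binding proteins such as the SR proteins, the hnRNPs and the epithelial regulators Esrp1 and Esrp2. When neighbouring exons are skipped together, the protein can lose a whole loop, stalk or tail segment. A block whose length is a multiple of 3 bases leaves the downstream reading frame as it was, while other lengths shift it and can expose the RNA to nonsense-mediated decay, the pathway that removes RNAs with early stop codons.

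The blocks were mostly short. Of the 2200 pairs, 1652 (75.1%) held 2 exons, 336 held 3 and 212 held 4 or more. The skipped sequence had a median of 246 bases, with quartiles of 175 and 356 bases and a range of 18 to 8400 bases. The largest number of exons was 31, in the matrix protein gene Abi3bp (chr16:56594462-56637124, 2151 bases), and the longest block was in the synaptic vesicle priming gene Unc13b (chr4:43166668-43178334), whose 2 exons of 33 and 8367 bases made up the 8400. A length that is a multiple of 3 was found in 1114 of the pairs (50.6%), against 46.9% of the 10709 single-exon skipping pairs of the same table. By the GENCODE annotation of the ON transcript, the block was fully coding in 1197 pairs (54.4%), partly coding in 485, in an untranslated region in 189, in a transcript with no coding sequence in 288 and in a transcript not annotated there in 41. Cd44 and Aamdc had 13 pairs each and Mindy3 had 14, while 1042 genes had 1.

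The sequences of the blocks on which the results turn were read from the GENCODE vM21 transcript of the ON form, with coordinates on build GRCm38. Capitals mark the skipped exon, and the lower-case letters are the 5 bases of the mature RNA on either side of it. The first block is that of Cd47, the integrin-associated protein whose known forms differ in the length of the cytoplasmic tail, with exons at chr16:49908054-49908078 and chr16:49908703-49908735 (plus strand).
Cd47 first exon: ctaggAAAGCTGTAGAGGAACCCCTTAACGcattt
Cd47 second exon: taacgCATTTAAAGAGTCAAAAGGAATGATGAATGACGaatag
The Adgrl2 block, of the adhesion G protein-coupled receptor latrophilin-2, had exons at chr3:148827541-148827585 and chr3:148827212-148827238 (minus strand).
Adgrl2 first exon: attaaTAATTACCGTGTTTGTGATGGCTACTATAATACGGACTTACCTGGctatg
Adgrl2 second exon: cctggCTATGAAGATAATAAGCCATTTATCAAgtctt
The Rps24 block, of a protein of the small ribosomal subunit, had exons of 18 and 20 bases at chr14:24494052-24494069 and chr14:24495430-24495449 (plus strand).
Rps24 first exon: aaaagAAATGAAATACCTAGCAGtgagt
Rps24 second exon: agcagTGAGTGGAGATTGGATACAGccaaa
The Fgfr2 block had exons of 267 and 78 bases at chr7:130242378-130242644 and chr7:130241200-130241277 (minus strand), and is shown because Fgfr2 is a receptor of FGF1.
Fgfr2 first exon: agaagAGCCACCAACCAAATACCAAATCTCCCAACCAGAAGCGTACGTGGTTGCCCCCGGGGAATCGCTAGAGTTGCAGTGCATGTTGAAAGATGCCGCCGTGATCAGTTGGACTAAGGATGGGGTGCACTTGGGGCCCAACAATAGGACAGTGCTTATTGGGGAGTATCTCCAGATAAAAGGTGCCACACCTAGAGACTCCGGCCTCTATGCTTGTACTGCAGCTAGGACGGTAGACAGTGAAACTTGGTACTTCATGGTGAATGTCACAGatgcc
Fgfr2 second exon: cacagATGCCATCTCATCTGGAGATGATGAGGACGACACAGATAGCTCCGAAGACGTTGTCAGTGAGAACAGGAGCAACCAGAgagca
The Cd44 exons are the first 3 of its variable region, at chr2:102848657-102848782, chr2:102846403-102846519 and chr2:102845285-102845410 (minus strand), present in the full-length form and absent from the form with 7 variable exons.
Cd44 exon 1: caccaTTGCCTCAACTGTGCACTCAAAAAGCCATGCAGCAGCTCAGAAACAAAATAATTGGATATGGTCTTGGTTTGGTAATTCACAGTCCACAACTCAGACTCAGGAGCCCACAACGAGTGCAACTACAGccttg
Cd44 exon 2: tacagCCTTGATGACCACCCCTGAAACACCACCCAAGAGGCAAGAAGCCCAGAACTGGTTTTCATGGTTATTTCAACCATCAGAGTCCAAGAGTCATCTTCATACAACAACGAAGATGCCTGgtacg
Cd44 exon 3: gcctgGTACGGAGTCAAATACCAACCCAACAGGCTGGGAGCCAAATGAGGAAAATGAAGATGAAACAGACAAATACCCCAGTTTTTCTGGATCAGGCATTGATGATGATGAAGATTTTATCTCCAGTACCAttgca

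The number of pairs listed in a library, with both forms above 0 in the event's own rows, did not overlap between control colon and either other group. It was 994, 1027, 1068 and 1046 in FGF1 1 to FGF1 4, 1073, 1064, 842 and 893 in DSS 1 to DSS 4 and 1133, 1138, 1222 and 1156 in control 1 to control 4, and no test was run on it. A pair was listed with both forms or with neither. Of the row values whose transcript was above 0 in that library, 34.4% were listed at 0. The count is therefore of events as listed, not of forms present. Every FGF1 and every DSS library was below every control library, and DSS 3 and DSS 4 were the lowest of all 12. Per 1000 transcripts above 0, the values were 19.8 to 20.6 pairs in FGF1, 18.4 to 20.7 in DSS and 21.4 to 22.5 in control, and control again lay above both other groups. Pairs of every event kind together separated in the same way, with 11468 to 12139 in FGF1, 10228 to 12231 in DSS and 12380 to 12995 in control. Multiple-exon skipping made up 8.62% to 8.88% of them in FGF1, 8.23% to 8.88% in DSS and 9.07% to 9.40% in control. The smooth muscle marker score, a mean of log2(FPKM + 1) over 15 genes, was 5.38 to 7.87 in FGF1, 4.51 to 6.21 in DSS and 6.60 to 8.21 in control. The fibroblast score was 2.98 to 4.24 in FGF1, 1.24 to 2.92 in DSS and 4.10 to 4.73 in control. The colonocyte score was 7.89 to 8.34 in FGF1, 8.09 to 8.86 in DSS and 7.93 to 8.29 in control. The part of the cell mixture in the counts was not tested, and the read depth of the libraries is unknown, since the values are FPKM.

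**Figure D1:**
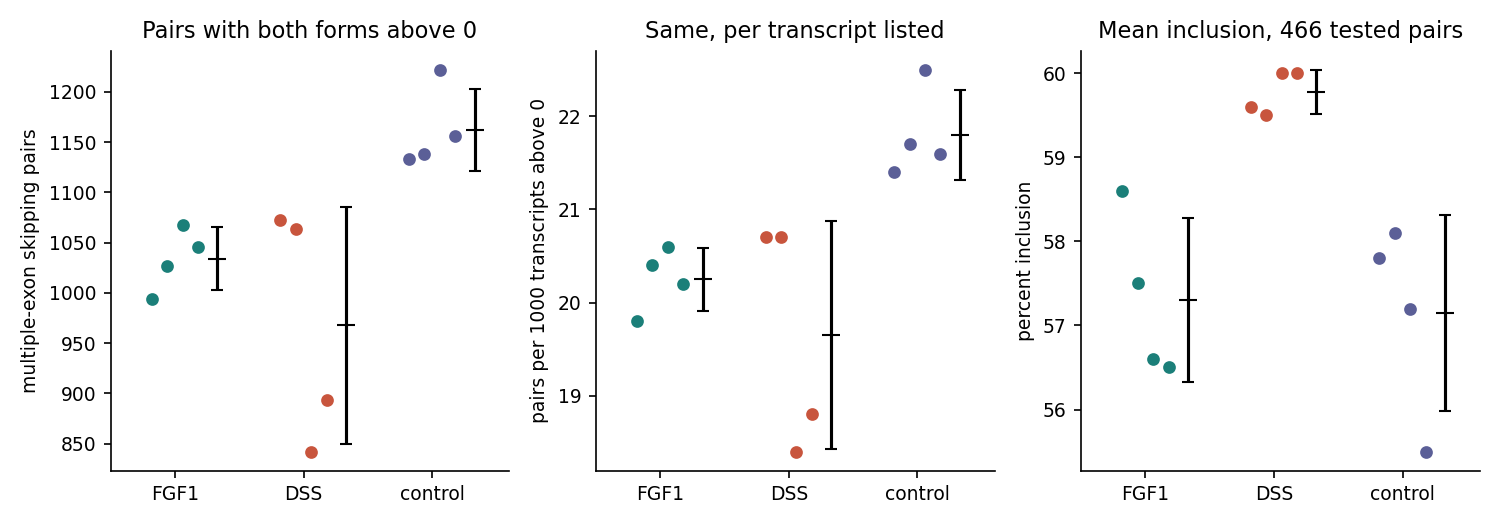
Multiple-exon skipping pairs by library. Each point is 1 library, and the bar is the group mean ± SD (n = 4). The left panel counts the pairs with both forms above 0 in the event's own rows. The middle panel divides that count by the transcripts above 0 in any row (pairs per 1000). The right panel gives the mean percent inclusion over the 466 tested pairs, each left out of a library in which both of its forms are at 0. The vertical axes do not start at 0. Control is the highest group in the left and middle panels and DSS is the highest in the right one.

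Inclusion, the ON share of ON plus OFF FPKM, could be compared in 466 pairs of 349 genes, those with a mean of at least 0.5 FPKM for both forms over all 12 libraries. Of the other 1734 pairs, the ON form alone was too low in 443, the OFF form alone in 756 and both in 535. Among the 466 pairs the median inclusion was 64.2% (quartiles 33.3% and 86.0%), with 42 pairs under 10% and 81 over 90%. A length that is a multiple of 3 was found in 288 (61.8%) of the 466 tested pairs and in 50.7% of the 3293 tested single-exon pairs. Of the 288, 219 were fully coding. Pairs of a gene can share exons, as those of Cd44 do, so an exon can be counted more than once. Fully coding blocks were kept at a median of 70.6% (303 pairs) and blocks in untranslated regions at 29.4% (34 pairs). Within the coding blocks the 84 that shift the frame had a median of 84.2%, and the 219 that keep it had 64.4%. Where the ON transcript is annotated as a target of nonsense-mediated decay the median was 45.8% (55 pairs), and where the OFF transcript is so annotated it was 70.8% (54 pairs). These are descriptions of the tested pairs, which passed a filter on both forms.

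The mean inclusion over the tested pairs was 57.3% ± 0.976 in FGF1, 59.8% ± 0.263 in DSS and 57.2% ± 1.16 in control (SD, n = 4 each). A pair with both forms at 0 in a library was left out of the mean of that library. Such a library occurred in 25 of the tested pairs, so the means do not all cover the same pairs. All 4 DSS libraries, at 59.5% to 60.0%, stood above the FGF1 libraries, at 56.5% to 58.6%, and the control libraries, at 55.5% to 58.1%. The median over the same pairs was 62.8% to 69.2% in FGF1, 67.9% to 75.7% in DSS and 59.9% to 66.6% in control. By the median DSS was above control but overlapped FGF1. Over the 6586 tested pairs of every event kind the mean was 46.2% to 46.6% in FGF1, 46.5% to 47.5% in DSS and 45.5% to 45.9% in control. There control stood apart as the lowest group, and DSS overlapped FGF1.

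Replicates often disagreed on which form was present. One form was at 0 in at least 1 library for 242 of the 466 pairs (51.9%), and the main form differed between libraries in 252 pairs (54.1%). In 74 pairs, libraries of a single group ranged from under 10% to over 90%. The SD within a group was smaller at higher levels, with a median of 26.2 percentage points for the 75 pairs under 3 FPKM, 16.6 for the 183 pairs from 3 to 10 FPKM, 7.4 for the 146 pairs from 10 to 30 FPKM and 3.8 for the 62 pairs above that. Some abundant pairs still switched. The OFF form of the stress kinase gene Mapk13 was listed at 0 in all 4 FGF1 libraries, in DSS 3 and DSS 4 and in control 1 and control 3, and at 59.5 and 105 FPKM in DSS 1 and DSS 2 and 63.2 and 81.2 FPKM in control 2 and control 4.

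**Figure D2:**
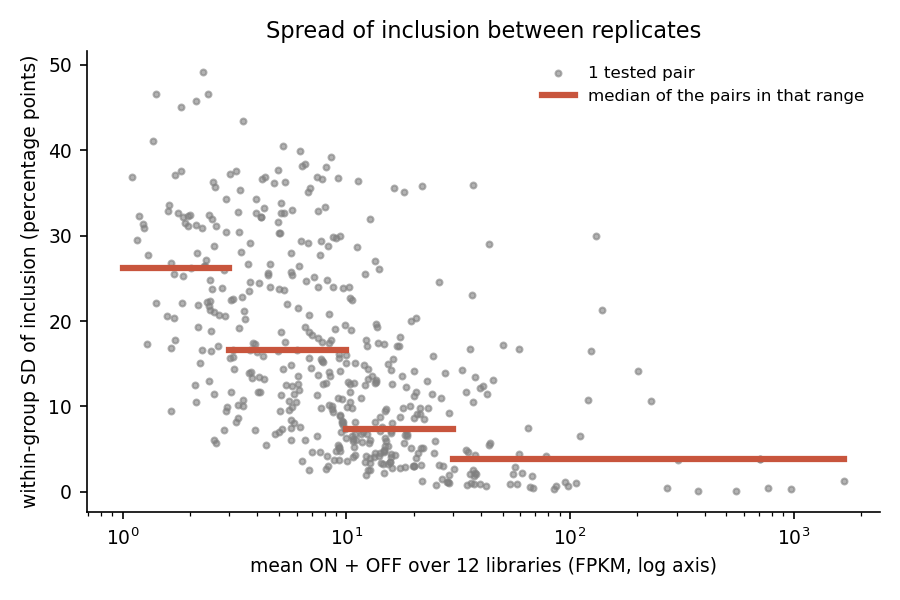
Spread of inclusion between replicates against level. Each grey point is 1 of the 466 tested pairs, the horizontal axis is the mean of ON plus OFF over 12 libraries in FPKM on a log axis, and the vertical axis is the SD of percent inclusion within a group, averaged over the 3 groups. The red bars are the medians of the 4 level ranges and step down from 26.2 to 3.8 percentage points.

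Among the 10 most abundant members, Lgals4, Ceacam1, Cdhr5, Tmbim6, Myl6 and Ptma had the same dominant form in every library. Lgals4, the gut lectin galectin-4, was included at 97.1% in FGF1 1, 95.0% in DSS 2 and 100% in the other 10 libraries, with 1220 to 2130 FPKM of the ON form. Ceacam1, an epithelial adhesion receptor with a close paralog in Ceacam2, was at 96.5% to 98.3% in all 12. The brush border cadherin Cdhr5 was at 98.8% to 100%, and the stress-protective membrane protein gene Tmbim6 at 99.7% to 99.9%. The block of the myosin light chain gene Myl6 at chr10:128492939-128493353 was skipped almost everywhere (0.2% to 1.8% inclusion), as was that of the nuclear protein gene Ptma (0.1% to 0.2%). The others varied more, with inclusion of 87.5% to 99.6% in Dmbt1, 32.1% to 92.2% in Gsdmc2, 39.0% to 100% in Mapk13 and 7.2% to 26.3% in Rps24 over the 12 libraries. Of the 10, Rps24 was the one with both forms at 27.1 FPKM or more in every library. The block with most exons among the tested pairs was in the starch-digesting enzyme gene Mgam, where 23 exons (2685 bases) were kept at 82.3% to 90.6% in FGF1, 79.2% to 86.5% in DSS and 81.8% to 91.3% in control.

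The first comparison asks whether colon of DSS mice kept or skipped the blocks differently from control colon. The difference is that of log2((ON + 1)/(OFF + 1)), tested with limma over the 6586 pairs of every kind and called at a Benjamini-Hochberg adjusted p under 0.05. None of the 466 pairs was called (0.0% of all 6586 pairs were), and the smallest adjusted p was 0.208. At an unadjusted p under 0.05 there were 38 pairs (8.15%), 23 higher and 15 lower in DSS, against a background of 8.69% of all pairs tested. The median difference was 0.10 over the members and 0.02 over all pairs, and 257 of the 466 members were above 0. On the scale of the ratio, DSS and control libraries did not overlap in 17 pairs that were higher in DSS (3.65%, against 2.92% of all pairs) and in 9 that were lower (1.93%, against 2.37%). These shares lie near the background. The SE of a difference had a median of 0.57 on the log2 scale over the members (0.18 to 2.49), against 0.47 over all pairs.

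Cd47, the "do not eat me" signal of cells towards macrophages, had the lowest p of DSS against control. The 58-base block shown above was kept at 89.7%, 99.5%, 95.6% and 92.3% in DSS 1 to DSS 4 and at 66.4%, 56.0%, 78.3% and 83.2% in control 1 to control 4, a difference of 2.08 ± 0.47 (SE; adjusted p = 0.208). All DSS libraries were above all control libraries. The FGF1 libraries, at 84.8%, 89.6%, 74.3% and 67.8%, lay below every DSS library. FGF1 1 and FGF1 2 were above every control library, and FGF1 3 and FGF1 4 were within the control range. The OFF form had 2.21, 0.0789, 0.986 and 1.65 FPKM in DSS and 5.67, 6.65, 2.93 and 2.6 FPKM in control, and the ON form 14.6 to 21.7 FPKM in DSS and 8.46 to 12.8 FPKM in control.

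Adgrl2 was similar in direction. Inclusion of its 72 bases was 67.9%, 61.8%, 76.3% and 72.6% in the DSS libraries and 35.8%, 10.6%, 45.4% and 3.8% in the control libraries (1.88 ± 0.47, adjusted p = 0.237). FGF1 libraries stood at 25.1%, 3.6%, 25.7% and 36.8%, again without overlap with DSS. Its forms were low, at 0.119 to 2.86 FPKM for ON and 0.693 to 4.96 FPKM for OFF over the 12 libraries. The Dcun1d2 block, in a cofactor of cullin neddylation (chr8:13258947-13261467, 180 bases), was kept at 59.7%, 88.5%, 100% and 56.7% in DSS and 47.5%, 46.9%, 20.3% and 47.4% in control (1.44 ± 0.45, adjusted p = 0.423), also with no overlap.

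Rps24 went the other way at a high level of expression. Its 2 short exons were kept at 11.3%, 20%, 8.5% and 7.2% in DSS and at 25.8%, 25%, 24.3% and 26.3% in control, where the spread was 0.9 percentage points (SD). The difference was -1.44 ± 0.37 (adjusted p = 0.257), with every DSS library under every control library. The ON form had 27.2, 50.9, 36.2 and 27.1 FPKM in DSS and 78.2, 55.4, 67.9 and 70.2 FPKM in control, also without overlap, while the OFF form, at 204 to 388 FPKM in DSS and 166 to 225 FPKM in control, overlapped. Ribosomal protein genes have processed pseudogenes, so reads may be shared between copies.

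The WNK2 kinase gene, of a family that controls ion transport, had the second lowest p. Its 270 coding bases (chr13:49050484-49051527) were kept at 68.9%, 30.1%, 57.3% and 58.8% in DSS and at 95.3%, 84.1%, 97.2% and 97.1% in control (Wnk2, -1.75 ± 0.43, adjusted p = 0.236). The FGF1 libraries, at 82.4%, 84.6%, 89.9% and 99.2%, were above all DSS libraries. The mean ON plus OFF of the Wnk2 pair was low, at 3.28 FPKM. An 81-base coding block of the MHC class I gene H2-Q1 (chr17:35323780-35324048) was kept at 11.3%, 11.5%, 11.1% and 7.5% in DSS and 20.5%, 26.9%, 22.7% and 21.0% in control (-1.10 ± 0.28, adjusted p = 0.257). Class I genes are near-identical copies of each other, and how reads were shared among them is uncertain. The other pairs with the lowest p were those of Dnase1l1 (1.42), Aprt (-0.89), the sodium-proton exchanger gene Slc9a8 (3.03) and Wbp1 (1.72), with adjusted p from 0.334 to 0.423. Aprt was included at 0.2% to 1.3% in DSS and 0.7% to 1.8% in control. On the log2 scale its OFF sum rose by 0.84 and its gene sum by 0.74. With the ON form near 0, the ratio of Aprt also carries the level of the gene. In Aprt, Slc9a8 and Wbp1 the percent inclusion of the groups overlapped, and in the other pairs named for DSS against control it did not.

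**Figure D3:**
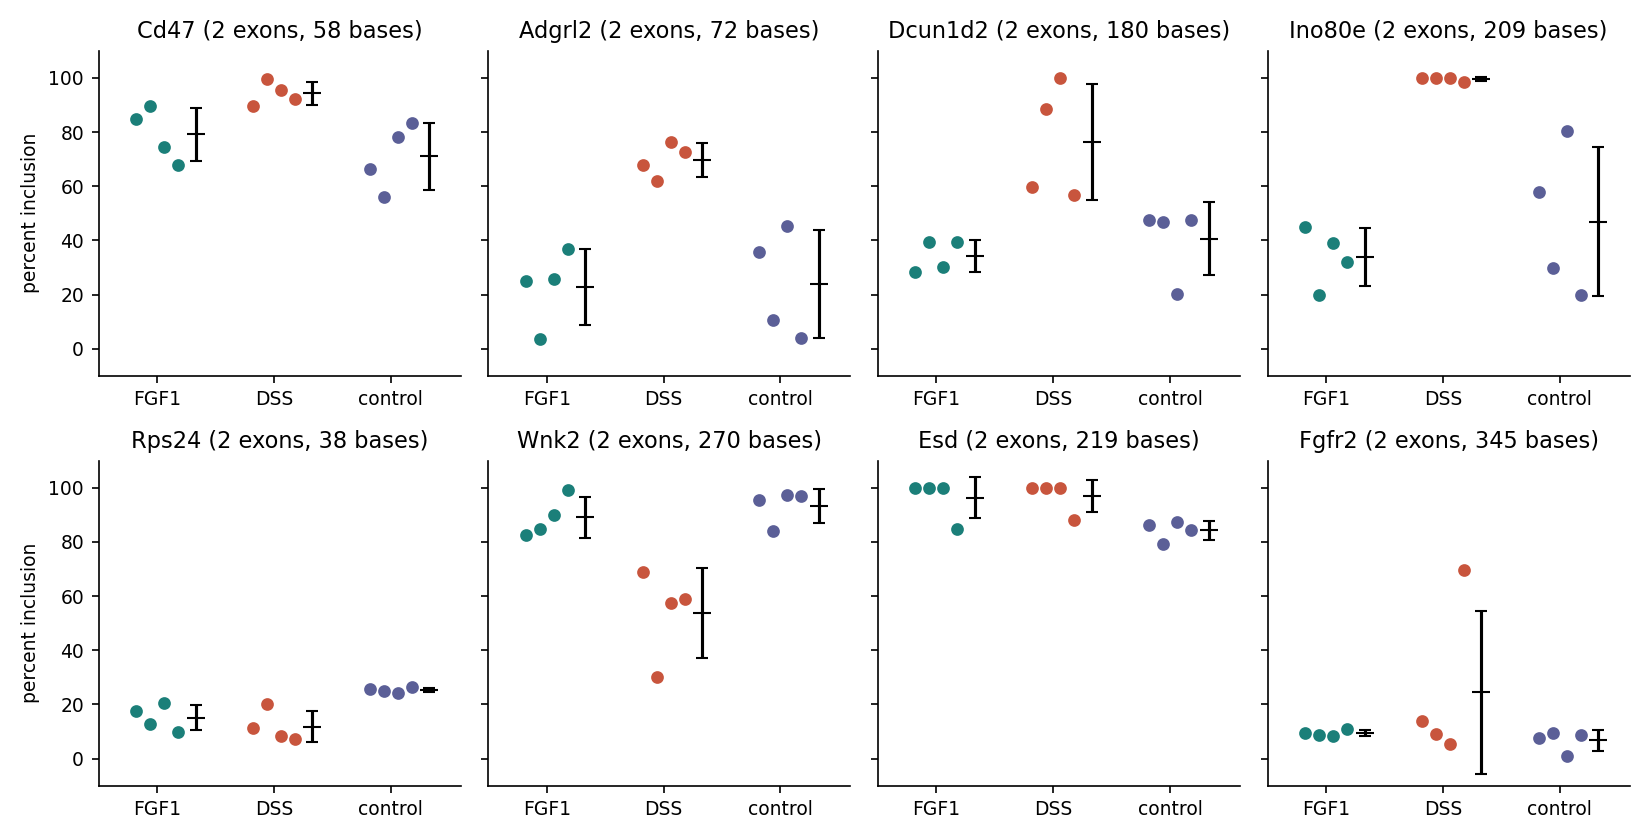
Percent inclusion of 8 blocks by library. Each point is 1 library, with groups from left to right FGF1, DSS and control, and the bar is the group mean ± SD (n = 4). DSS stands apart from both other groups in Cd47, Adgrl2, Dcun1d2, Ino80e and Wnk2. Control stands apart from both other groups in Rps24, DSS overlaps only FGF1 in Esd, and in Fgfr2 DSS 4 is at 69.5% while the other 11 libraries are under 14%.

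In the second comparison, FGF1 against DSS, again no pair of the 466 was called by limma (0.0% of all pairs), with a smallest adjusted p of 0.402. The unadjusted p was under 0.05 in 38 members (8.15%), 18 higher and 20 lower in FGF1, against 6.13% of all pairs. The median difference was -0.08 over the members and 0.00 over all pairs, with 264 of 466 below 0. On the same scale, FGF1 and DSS did not overlap in 5 pairs that were higher in FGF1 (1.07%, against 1.88% of all pairs) and 8 that were lower (1.72%, against 2.11%). The 5 higher pairs were Rrp36, Svil, Gas5, Dennd1b and Ssbp4 and the 8 lower ones Hnrnpd, Cd44, Rbm39, Adgrl2, Ino80e, Dcun1d2, Wnk1 and Cd47. Svil, Gas5, Dennd1b, Ssbp4 and Wnk1 were singled out after their values were seen. This comparison uses the same DSS libraries as the first, so both depend on the same values of DSS.

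Ino80e, a subunit of the INO80 chromatin remodeller, was skipped more in every FGF1 library than in any DSS library. Its block (chr7:126853489-126857342, 209 bases, partly coding) was kept at 44.8%, 20%, 38.9% and 31.9% in FGF1 and at 100%, 100%, 99.8% and 98.6% in DSS (-1.70 ± 0.46, adjusted p = 0.421). Control libraries, at 58.0%, 29.7%, 80.2% and 19.9%, were all below DSS as well. The OFF form had 2.34, 3.12, 1.34 and 2.51 FPKM in FGF1 and was at 0, 0, 0.00103 and 0.0239 FPKM in DSS, while the ON form overlapped, at 0.780 to 1.89 FPKM in FGF1 and 0.429 to 1.78 FPKM in DSS.

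The percent inclusion of Dcun1d2, Adgrl2, Cd47 and Tpsg1 was also lower in every FGF1 library than in every DSS library. Dcun1d2 was kept at 28.3%, 39.3%, 30% and 39.4% in FGF1 (-1.68 ± 0.45, adjusted p = 0.402), against the DSS values above. Adgrl2 had a difference of -1.76 ± 0.47 (adjusted p = 0.402) and Cd47 one of -1.51 ± 0.47 (adjusted p = 0.562), with the values given above. Tpsg1, a mast cell tryptase gene, was at 77.5%, 79.3%, 92.5% and 22.9% in FGF1 and 99.4%, 94.4%, 95.3% and 99.2% in DSS (-2.22 ± 0.70, adjusted p = 0.571). In the other direction, Rrp36, a ribosome biogenesis gene, was kept at 41.0%, 56.8%, 58.5% and 100% in FGF1 and 36.9%, 0.0%, 12.1% and 0.0% in DSS (1.55 ± 0.45, adjusted p = 0.458). Its level was low, with a mean ON plus OFF of 2.02 FPKM and a within-group SD of 26.2 percentage points. The remaining named pairs were Tjap1 (-1.11), Lmf1 (-3.06) and Slc9a8 (-2.89), with adjusted p from 0.571 to 0.592.

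Wnk1, a paralog of Wnk2, went between nearly full skipping and nearly full inclusion. Its 747-base block (chr6:119952685-119954232, exons of 285 and 462 bases) was kept at 0.8%, 0.1%, 0.0% and 0.0% in FGF1 1 to FGF1 4 and at 98.5%, 99.9% and 97.4% in DSS 1, DSS 2 and DSS 4, with both forms at 0 in DSS 3. Control 1 was at 96.5% and the other control libraries at 0.0%, 0.1% and 0.2%. FGF1 did not overlap with the DSS libraries that had a percent inclusion, but control 1 sat with DSS. DSS 3 has no percent inclusion. In the ratio it stood at 0, the value of equal ON and OFF, and it entered the differences with that value. The difference was -3.74 ± 1.26 for FGF1 minus DSS (adjusted p = 0.595) and 3.06 ± 1.26 for DSS minus control (adjusted p = 0.518). Without control 1, limma gave adjusted p = 0.048 for FGF1 minus DSS and 0.0478 for DSS minus control. Control 1 is the library that departs from its group, so leaving it out lowers the spread that both tests use. Among the fits that left out a library, Wnk1 was called in this fit alone.

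The last comparison, FGF1 against control, shares its libraries with the other two. It gave no call among the 466 members by limma (0.0% of all pairs), a smallest adjusted p of 0.883, and 20 members at an unadjusted p under 0.05 (4.29%, against 5.39% of all pairs), 10 in each direction. The median difference was -0.03 over the members and 0.02 over all pairs. The groups did not overlap in 3 pairs higher in FGF1 (0.644%, against 1.94% of all pairs), those of Gstt2, Dennd1b and Ccdc58, and in 4 lower (0.858%, against 1.58%), those of Timm9, Vegfa, Rps24 and Ube3a. Of these 7, all but Timm9 and Rps24 were singled out after their values were seen.

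Rps24 was kept at 17.4%, 12.9%, 20.4% and 9.9% in FGF1, below all control libraries (-0.97 ± 0.37, adjusted p = 0.883). FGF1 3 was above every DSS library, and the other 3 were within the DSS range. The block of Timm9, a small chaperone of the mitochondrial intermembrane space, lies in an untranslated region (chr12:71132001-71132642, 222 bases) and was kept at 8.1%, 15.8%, 11.3% and 14.4% in FGF1 and 32.2%, 29.1%, 27.1% and 44.1% in control (-1.0 ± 0.37, adjusted p = 0.883). FGF1 and control stood apart, at a low mean ON plus OFF of 3.45 FPKM. The DSS libraries, at 52.1%, 35.3%, 17.0% and 9.9%, ran from above the control range to within the FGF1 range, with DSS 3 between those ranges. Esd, which encodes an esterase that clears formaldehyde adducts, was kept at 100%, 100%, 100% and 84.9% in FGF1 and 86.3%, 79.3%, 87.3% and 84.4% in control (2.61 ± 0.85, adjusted p = 0.883), and in DSS at 100%, 100%, 100% and 88.1%. The other named pairs were Dram2 (-2.87), Npepps (2.91), Mbtd1 (1.84), Ptch1 (-2.20), Lmf1 (-2.59), Pus1 (-2.04) and Cnot2 (2.34), each with 1 or more libraries of a group among those of the other.

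**Figure D4:**
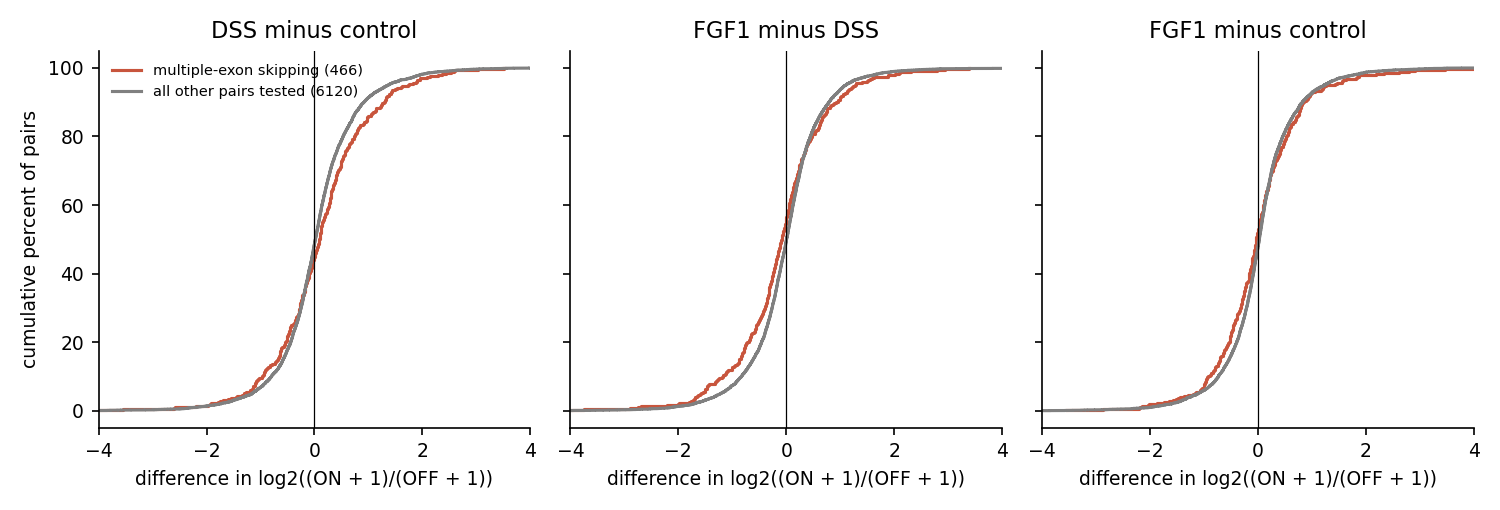
Cumulative distribution of the differences in log2((ON + 1)/(OFF + 1)), in FPKM, for the 466 multiple-exon skipping pairs (red) and all other pairs tested (grey), 1 panel for each comparison. The horizontal axis runs from -4 to 4, and pairs beyond it are not drawn. The red curve has its median at 0.10 in DSS minus control and at -0.08 in FGF1 minus DSS, and is less steep than the grey one.

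Cd44, the hyaluronan receptor of epithelial, stromal and immune cells, has the largest set of tested blocks, with all 13 of its pairs tested. Its stalk is encoded by a run of variable exons, and long and short forms are known to differ between epithelium and blood cells. The 13 pairs are built from 6 transcripts and are therefore not independent. These transcripts hold 10, 7, 5, 5, 3 or 0 of the variable exons (chr2:102831330-102848782), which have lengths of 207, 90, 102, 126, 120, 117, 114, 126, 117 and 126 bases from the last to the first, each a multiple of 3, or 1245 bases in all.

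The full-length form, ENSMUST00000005218, had 13.3, 0.0245, 0.114 and 0.326 FPKM in FGF1 1 to FGF1 4, 6.55, 7.10, 8.24 and 10.3 FPKM in DSS 1 to DSS 4 and 0.205, 9.76, 10 and 0.134 FPKM in control 1 to control 4. It was high in all DSS libraries, in FGF1 1 and in control 2 and control 3, and nearly 0 in the other 5. A form with 5 variable exons and 636 bases, ENSMUST00000111194, was high in those 5, with 0, 11.3, 12.8 and 8.63 FPKM in FGF1, 0, 1.72, 0.141 and 0 FPKM in DSS and 16.5, 2.81, 0.270 and 15.1 FPKM in control. The standard form with none of the variable exons, ENSMUST00000099673, was at 0, 5.73, 1.84 and 4.78 FPKM in FGF1, 4.55, 2.40, 0 and 0 FPKM in DSS and 0.898, 7.07, 13.2 and 0.902 FPKM in control.

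The mean number of variable exons per Cd44 transcript was 8.15, 3.75, 4.40 and 3.60 in the FGF1 libraries, 6.05, 6.98, 7.57 and 8.13 in the DSS libraries and 5.15, 5.69, 4.70 and 4.88 in the control libraries. DSS was above control without overlap, and above 3 of the 4 FGF1 libraries. This summary was made after the values were seen and carries no test. The B and plasma cell score (5 of 9 listed genes used) was 2.29 to 3.5 in FGF1, 1.96 to 2.48 in DSS and 3.88 to 4.82 in control. The macrophage score (7 of 11 genes) was 2.11 to 3.34 in FGF1, 1.58 to 2.48 in DSS and 3.08 to 3.77 in control. The T cell score (4 of 10 genes) was 1.32 to 2.21 in FGF1, 0.986 to 1.95 in DSS and 0.985 to 2.13 in control. The part of these cells in the Cd44 values was not tested. The block of the 5 variable exons nearest the start of the gene (chr2:102842261-102848782, 600 bases), which includes the 3 shown above, was kept at 71.9%, 1.3%, 11.6% and 12.3% in FGF1 and 89.2%, 100%, 87.5% and 76.0% in DSS (-2.74 ± 0.74, adjusted p = 0.421), against 32.9%, 78.0%, 90.8% and 22.7% in control. The full block of 10 was kept at 59.0%, 74.8%, 100% and 100% in DSS and 18.6%, 58.0%, 43.3% and 13.0% in control (2.44 ± 1.25, adjusted p = 0.618). At the level of the gene, the sum of all listed Cd44 transcripts fell in DSS against control by 0.55 on the log2 scale (adjusted p = 0.0476), a call kept in 4 of the 12 fits that left out a library (adjusted p 0.0349 to 0.130).

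**Figure D5:**
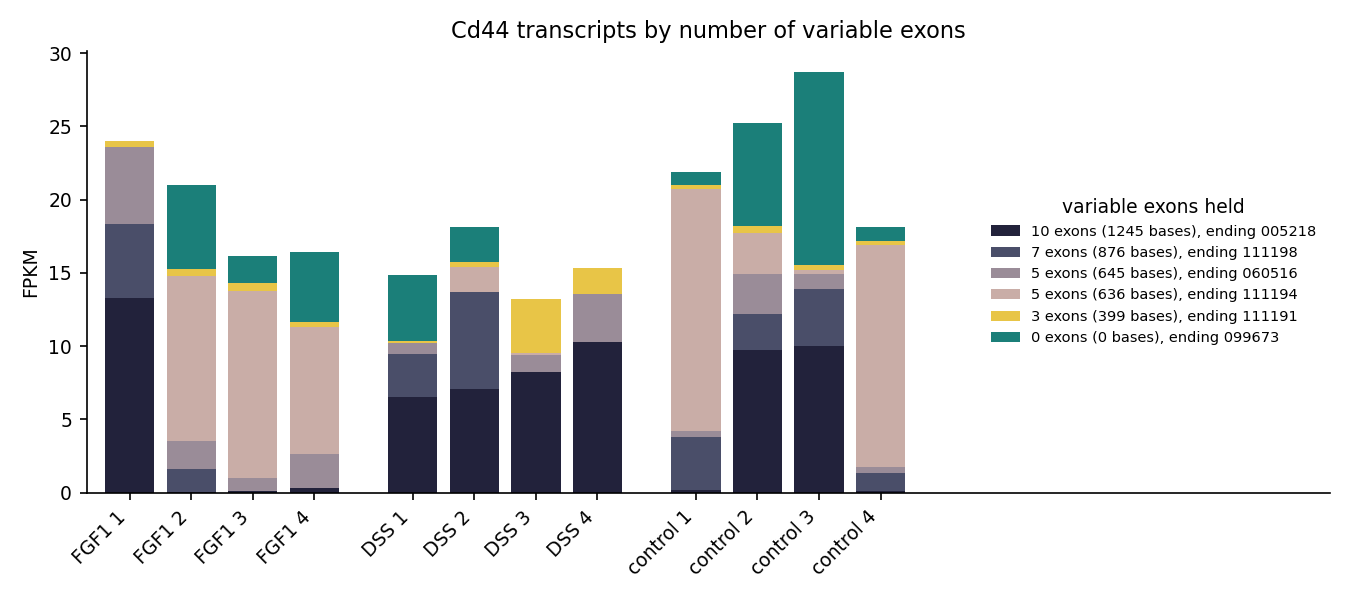
FPKM of the 6 Cd44 transcripts that make up its 13 pairs, stacked for each library, with FGF1, DSS and control from left to right. Colours give the number of variable exons that a transcript holds. The full-length form makes up 44.0%, 39.1%, 62.4% and 67.3% of the bar in DSS 1 to DSS 4, and 55.4%, 0.1%, 0.7% and 2.0% in FGF1 1 to FGF1 4.

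Of 58 genes of splicing factors, 16 had a multiple-exon pair and 9 had 10 tested pairs, none called in any of the 3 comparisons by limma, with 0, 1 and 0 at an unadjusted p under 0.05 in DSS minus control, FGF1 minus DSS and FGF1 minus control. Hnrnpd, whose OFF transcript is annotated as a target of nonsense-mediated decay, kept its 226-base block at 49.2%, 41.0%, 48.3% and 43.0% in FGF1, 55.6%, 49.4%, 52.1% and 52.7% in DSS and 51.6%, 52.4%, 49.1% and 51.9% in control. FGF1 lay just below DSS (-0.39 ± 0.22, adjusted p = 0.836). The block of the SR protein gene Srsf4, annotated as leading to decay, was kept at 1.4% to 4.3% in FGF1, 1.7% to 3.2% in DSS and 0.8% to 4.5% in control, and that of Rbm39, also of the decay type, at 0.8% to 1.8% in FGF1, 1.8% to 2.3% in DSS and 1.2% to 3.2% in control. The epithelial regulator Esrp1 kept its 261-base block at 41.1% to 58.7% in FGF1, 34.3% to 62.5% in DSS and 40.3% to 61.8% in control.

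Of 40 genes of the actin cytoskeleton and contraction, 14 had a pair and 7 had 10 tested pairs, none called by limma (0, 1 and 0 at an unadjusted p under 0.05), with a median difference of -0.70 in DSS against control beside 0.10 over all 466. Of the 10 pairs, 3 belong to Myl6 and share transcripts, and 2 had a difference above 0 in DSS against control. Zyx and Smtn, given next, do not represent the list median. Smtn was at -0.23, and Zyx leaned to higher percent inclusion in DSS. The focal adhesion gene Zyx kept its 296-base block at 81.9% to 97.2% in FGF1, 82.6% to 97.8% in DSS and 74.8% to 88.6% in control, and the smooth muscle gene Smtn kept its 228 bases at 83.0% to 99.9% in FGF1, 80.6% to 99.1% in DSS and 85.4% to 95.0% in control. Of 37 adhesion and junction genes, 5 had a pair and Cd44 and Ceacam1 were tested (14 pairs; 0 called by limma, and 1, 4 and 0 at an unadjusted p under 0.05, all in Cd44). Of 34 immune genes, 4 had a pair and Cd44 was the tested one. In the mucus list of 31 genes, Syt7 alone had pairs, and the tested one (chr19:10426299-10430460) was kept at 4.4%, 5.4%, 4.9% and 50% in FGF1, 47.2%, 49.2%, 0.6% and 6.0% in DSS and 4.2%, 4.3%, 5.3% and 4.7% in control (1.43 ± 0.52 for DSS minus control, adjusted p = 0.479). Of 39 Notch and Wnt genes, 3 had pairs and none passed the filter. Among the marker lists of cell types, pairs were tested in Smtn, Pecam1, Cdhr5 and Ceacam1, with no call.

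Of 35 genes of FGF receptors and ERK signalling, 2 had a pair and Fgfr2 was tested. Forms of this receptor that lack the first immunoglobulin-like loop are known. The 345-base block shown above was mostly skipped, with inclusion of 9.6%, 8.8%, 8.4% and 10.8% in FGF1, 13.7%, 9.0%, 5.4% and 69.5% in DSS and 7.5%, 9.5%, 1.1% and 8.6% in control. The 4 FGF1 libraries had an SD of 1.1 percentage points, and DSS 4 stood apart from all other libraries. In DSS 4 the OFF form was at 1.09 FPKM and the ON form at 2.50 FPKM, against 4.47 to 14.3 FPKM and 0.255 to 1.41 FPKM in DSS 1 to DSS 3. The differences were 1.26 ± 0.60 for DSS minus control (adjusted p = 0.60) and -0.89 ± 0.60 for FGF1 minus DSS (adjusted p = 0.858).

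The levels of the single forms were also tested, as log2(FPKM + 1) of each ON and OFF sum over all 13172 sums. In DSS against control, 5 of the 932 sums of members were called by limma, all of them OFF forms: 1 rose (0.107%, against 0.0456% of all sums) and 4 fell (0.429%, against 0.213%). The OFF form of Aprt, an enzyme of adenine salvage, rose, with 98.4, 70.3, 95.4 and 89.2 FPKM in DSS and 55.7, 48.9, 43.2 and 46.6 FPKM in control (0.84, adjusted p = 0.0499). All DSS libraries were above all control libraries. The OFF form of Adgrl2 fell, with 0.941, 0.693, 0.782 and 0.989 FPKM in DSS and 2.65, 3.47, 3.43 and 4.96 FPKM in control (-1.30, adjusted p = 0.0453). That of Tjap1, a tight junction-associated protein, fell with 2.87, 0.501, 1.94 and 1.85 FPKM in DSS and 6.37, 6.39, 10.7 and 7.55 FPKM in control (-1.70, adjusted p = 0.0453). The OFF form of the matrix gene Postn fell (-1.56, adjusted p = 0.0453), with at most 0.581 FPKM in DSS and 2.36 to 2.83 FPKM in control, as did that of Gsdmc2 (-2.45, adjusted p = 0.0353), an epithelial gasdermin with near-identical neighbours. These calls were kept in 2, 2, 2, 3 and 7 of the 12 fits that left out a library for Aprt, Adgrl2, Tjap1, Postn and Gsdmc2, and none was kept with the smooth muscle score in the fit (adjusted p 0.43 to 0.462). In the fit with the score the differences were 0.61, -1.14, -1.58, -1.51 and -1.69, in the same order. The score did not overlap between DSS and control, so that fit cannot fully separate score from treatment.

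Of the 349 genes with a tested block, 8 rose in DSS against control (2.29%, against 2.08% of the 12251 genes tested) and 25 fell (7.16%, against 9.31%). With median-of-ratios scaling, which moves the median of all genes from -0.07 to 0.06 on the log2 scale, the split was 17 higher and 16 lower, against 654 higher and 899 lower of all 12251 genes, and how many of them were higher or lower therefore changed with the scaling. Among those that fell were Gsdmc2 (-3.40, adjusted p = 0.0061), Postn (-2.17, 0.00773), the endothelial adhesion gene Pecam1 (-1.60, 0.0145), Nexn (-1.57, 0.043) and Wnk1 (-1.03, 0.0125), and among those that rose Aprt (0.74, 0.00497) and Lgals4 (0.54, 0.0356), with limma's adjusted p. Nexn was kept in 5 and Lgals4 in 7 of the 12 fits that left out a library, and with the replicate block their adjusted p was 0.0621 for Nexn and 0.0793 for Lgals4. The other 5 genes named were kept in all 12 and with the block. Of those 5, limma kept only Postn (adjusted p = 0.0418) without DSS 3 and DSS 4 together, a fit with fewer DSS libraries. There the adjusted p was 0.0567 for Gsdmc2, 0.0643 for Aprt, 0.136 for Pecam1 and 0.142 for Wnk1. The endothelial score was 1.53 to 2.12 in FGF1, 0.805 to 1.98 in DSS and 2.56 to 2.69 in control. With the smooth muscle score added to the fit, the adjusted p of the 33 called genes was 0.117 to 0.737. The score did not overlap between DSS and control, so this fit cannot fully separate score from treatment. With it, the difference was -2.89 in Gsdmc2, -1.43 in Postn, -1.10 in Pecam1, -0.18 in Nexn and -0.69 in Wnk1. It was 0.53 in Aprt and 0.24 in Lgals4. Of the genes whose blocks had the lowest p, Cd47 (0.43, adjusted p = 0.0656), Rps24 (0.27, 0.286), Adgrl2 (-0.38, 0.358), Wnk2 (-0.71, 0.0866), Dcun1d2 (-0.29, 0.128) and Ino80e (-0.19, 0.458) were not called at the gene level in DSS against control. No such gene was called by limma in FGF1 against DSS (0.0571% of all genes were; 40 of 349 at an unadjusted p under 0.05) or in FGF1 against control (0.0898%; 30 of 349).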

How the data were processed

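Poly(A) RNA of mouse colon was sequenced. Per the submitters' processing notes, cutadapt 1.9, HISAT2 2.0.4, StringTie 1.3.4d and edgeR were used with build GRCm38. The deposited table gives the authors' FPKM of each transcript in each of 12 libraries, 1 row per splicing event and form. Isoform FPKM are estimates, read counts are not used here, and no interval for counting error can be given. Of 55765 values in the rows of multiple-exon events whose transcript is above 0 in that library, 34.4% are listed at 0 in the event's row. The transcript's value over all rows was therefore used for inclusion and levels. The counts of pairs per library use the event rows.

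ON and OFF FPKM were summed over transcripts, each once. The ratio log2((ON + 1)/(OFF + 1)) was fitted with limma 3.58.1 (R 4.3.3; moderated two-sided test, prior variance trended on the mean, Benjamini-Hochberg adjustment over all 6586 pairs with mean ON and OFF of at least 0.5 FPKM), 12 libraries in 1 fit, and checked on simulated data. The pseudocount of 1 FPKM understates differences of low pairs. Where 1 form is near 0 and the other is not, it also carries a change in the level of the gene into the ratio. A library with both forms at 0 enters the ratio at 0, as equal ON and OFF, and has no percent inclusion. Of the tested members, 25 had such a library. Sums and genes (mean of at least 1 FPKM) were fitted as log2(FPKM + 1). Tables were made with Python 3.11.15 and pandas 2.3.3.

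Named for each comparison were the 10 pairs with the lowest p, 1 per gene, then the 10 with the highest FPKM, the tested pairs of listed genes, and the extremes of exon number and length. The members and gene lists were chosen with earlier results of these data known. Alternatives were another pseudocount, filters, the percent scale, members alone, 1 pair per transcript set, 2 groups only, the smooth muscle score, a replicate block, left-out libraries and no trend. Event-row values, a floor in every library and median-of-ratios scaling were added after seeing the data.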

Additional observations from a re-analysis of the deposited data

Results flagged for a closer look

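Each group of 4 libraries of the named pairs was screened for a library far from the other 3, by the gap to its nearest neighbour as a share of the range of the group. Of 212 groups, 35 stood out. Chance flags about 1 in 20 groups, pairs of a gene share transcripts, and groups with 3 libraries at the same value are flagged by any small difference.

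Among FGF1 libraries, FGF1 1 stood apart in Cd44, with inclusion of 100% for the block of all variable exons (0.4% to 6.4% in the others), 100% for the 3-exon and 5-exon blocks that share its last exon and for the block at chr2:102842836-102848782, 71.9% at chr2:102842261-102848782 and 0.0% at chr2:102839358-102842377 (96.0% to 96.3% in the others). FGF1 1 was also at 58.7% in Esrp1, 98.4% in Hnrnpa1, 97.1% in Lgals4, 60.5% in Sorbs2 and 0.8% in Wnk1. FGF1 2 was at 48.6% in Dram2. FGF1 4 was at 82.8% in Bud23, 84.9% in Esd, 48.9% in Pus1 and 50% in Syt7.

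Among DSS libraries, DSS 1 was at 32.1% in Gsdmc2, against 85.1% to 92.2% in the others. DSS 2 was at 82.7% and 80.5% in the Cd44 blocks at chr2:102839358-102842377 and chr2:102842836-102848782, at 95.0% in Lgals4 and at 67.3% in Npepps. DSS 4 was at 69.5% in Fgfr2, 88.1% in Esd, 7.5% in H2-Q1 and 98.6% in Ino80e.

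Among control libraries, control 1 was at 96.5% in Wnk1 (0.0% to 0.2% in the others), 3.2% in Rbm39, 66.1% in Sorbs2, 32.2% in Svil and 17.6% in Tacc2. Control 2 was at 84.1% in Wnk2. Control 3 was at 20.3% in Dcun1d2 and 0.2% in Ptma. Control 4 was at 25.9% in Ptch1 and 87.3% in Unc13b.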

How the results depend on the processing

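No called member was the result for the ratio in nearly all alternatives. Exceptions were no filter on low values, with 6 calls among 2200 members in DSS minus control and 1 in FGF1 minus control, against 54 and 2 among all 19723 pairs (Axl, Adgra2, Dmd, Col6a3, Fndc1 and another block of Adgrl2). Leaving out a library gave 0 to 1 calls in DSS minus control (Bud23 without DSS 3, adjusted p = 0.0439, and Wnk1 without control 1), 0 to 1 in FGF1 minus DSS (Wnk1 without control 1) and 0 in FGF1 minus control. With a replicate block the ratio gave 0 calls, the sums 0 and the genes 13. Same-numbered libraries did not deviate together in the ratio (correlations -0.055 to 0.017). The ratio varies much between replicates, so this cannot show whether same-numbered libraries share an animal or batch. The block rests on the number in the label alone. For the sums in DSS minus control (5 calls), pseudocount 0.1 gave 3, only the 2 groups compared 1, the smooth muscle score 0, leaving out DSS 3 and DSS 4 together 0, and leaving out 1 library 0 to 5. In FGF1 minus DSS the sums gave 1 with pseudocount 0.1, 1 with only the 2 groups and 0 to 1 without a library, and in FGF1 minus control 0 to 1 without a library. For genes in DSS minus control (33 calls), the smooth muscle score gave 0, leaving out DSS 3 and DSS 4 together 4 and leaving out 1 library 12 to 50, with 12 without DSS 3 or without control 3, 14 without control 4, 16 without DSS 4 and 50 without DSS 1. FGF1 minus DSS gave 0 to 2 called genes, with 2 without DSS 1. Event-row values turned the direction of Dnase1l1 in DSS minus control (-0.591) and of Esd in FGF1 minus control (-1.672), an alternative chosen after seeing the data. The other differences among the 10 pairs of lowest p in each comparison kept their direction under each alternative that gave a value; those of the remaining named pairs are not listed by alternative. The smooth muscle score did not overlap between DSS and control, so a fit with it cannot fully separate score from treatment. The cause of the changed counts was not tested. For pairs with a mean ON plus OFF under 3 FPKM, the SD of inclusion within a group has a median of 26.2 percentage points, which limits what 4 libraries can show.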
